A study of Mus musculus with 11 samples.

Results

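RNA sequencing of sorted mouse lung mesenchyme was searched for leukocyte transcripts, given by 42 genes picked by symbol as markers of haematopoietic cells: 7 pan-leukocyte, 17 myeloid, 4 granulocyte, 5 T and NK cell, 5 B and plasma cell and 4 MHC class II genes. The count table held 24411 gene symbols and 41 of the 42 genes. Trbc2, the constant region of a T cell receptor chain, matched no symbol of the table and is not analysed here. The cells came from lungs of C57BL6 mice after pneumonectomy (PNX, resection of lung tissue) or a sham operation, and were gated as triple negative for EpCAM, CD45 and CD31, so that every group passed the same gate against epithelium, leukocytes and endothelium. There were 3 sham and 3 PNX libraries at day 7, and 2 sham and 3 PNX libraries at day 14. The labels used here give neither the age or sex of the mice nor the lobe removed, and do not state whether a library is 1 animal or a pool, so p-values here speak only of the variation among libraries.

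CD45 is the phosphatase receptor on the surface of nucleated blood cells, encoded by Ptprc, and a gate on it removes cells by surface protein, not by transcript. Lung tissue holds alveolar and interstitial macrophages, monocytes, neutrophils, lymphocytes and plasma cells. Plasma cells carry little CD45 on their surface, and class II molecules, which present peptides to helper T cells, are also made by alveolar type II epithelium. In these bulk libraries, fewer cells of a type and less RNA per cell cannot be told apart.

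Much of the myeloid programme is switched on by the ETS factor PU.1, the product of Spi1, and the class II genes share a promoter module read by RFX, CREB and NF-Y together with the coactivator CIITA. Promoters of 4 members, 1 pan-leukocyte, 1 myeloid and 2 class II genes, are printed as examples. All 4 hold a match to a motif marked below, so they do not stand for members without a match. Each is the 250 bases before the RefSeq start on the gene's strand, in the GRCm38.p6 (mm10) table. Of the 42 members 30 matched an entry in that table. In H2-Aa (chr17:34287824-34288073, minus strand) and H2-Eb1 (chr17:34305617-34305866, plus strand) capitals mark the Y box CTGATTGG, at -51 to -44 and -62 to -55 from the start. In Cd53 (chr3:106790150-106790399, minus strand) and Ctss (chr3:95526536-95526785, plus strand) they mark the PU.1-type core GAGGAA, at -39 to -34 and -164 to -159.
H2-Aa: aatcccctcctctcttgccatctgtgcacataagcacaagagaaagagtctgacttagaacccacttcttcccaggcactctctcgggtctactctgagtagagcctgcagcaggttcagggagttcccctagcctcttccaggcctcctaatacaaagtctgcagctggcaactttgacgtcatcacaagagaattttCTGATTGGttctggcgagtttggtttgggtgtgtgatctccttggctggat
H2-Eb1: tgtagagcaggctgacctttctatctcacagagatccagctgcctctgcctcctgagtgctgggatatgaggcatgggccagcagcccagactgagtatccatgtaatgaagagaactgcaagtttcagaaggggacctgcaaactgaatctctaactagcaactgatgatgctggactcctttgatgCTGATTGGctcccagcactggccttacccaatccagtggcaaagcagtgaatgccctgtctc
Cd53: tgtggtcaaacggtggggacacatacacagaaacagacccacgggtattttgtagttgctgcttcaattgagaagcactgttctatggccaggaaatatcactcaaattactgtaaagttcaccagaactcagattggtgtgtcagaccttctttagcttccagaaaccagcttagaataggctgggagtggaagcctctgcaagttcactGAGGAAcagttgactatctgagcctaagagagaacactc
Ctss: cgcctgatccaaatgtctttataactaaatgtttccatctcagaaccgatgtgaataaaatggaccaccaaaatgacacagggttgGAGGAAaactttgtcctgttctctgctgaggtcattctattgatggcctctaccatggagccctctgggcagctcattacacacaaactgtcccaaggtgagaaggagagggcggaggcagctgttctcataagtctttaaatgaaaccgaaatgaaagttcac
On either strand the Y box letters lay before 2 of the 30 member genes and in 3.83% of 32851 promoter entries of the same length. The PU.1-type core lay before 15 of the 30 and in 23.3%. Members were counted once per gene, with a match in any entry, and the background by entry, so the 2 shares are not of like units. The 2 motifs share no letters in these windows, and a match describes the sequence only.

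Total counts ran from 2539628 to 9008592 per library, and levels are given as CPM, read counts relative to library size scaled by TMM factors, in the order of the replicate numbers. Low levels were read against 1462 olfactory and vomeronasal receptor genes, which lung is not known to express, whose 95th percentile was 0.244 to 3.02 CPM per library. In the 2 sham libraries of day 14, 39 and 41 of the 41 members stood above that percentile, in the other libraries 23 to 39. A count of 0 allows up to 3 counts, or 0.366 to 1.01 CPM, by counting error alone. The labelled cell type was checked with 12 mesenchymal genes, Dcn, Col3a1 and Col1a2 highest among them, which summed to 10010 and 19090 CPM in sham at day 14 and to 18210 to 37310 CPM elsewhere. The gate genes Epcam and Pecam1 stood at 0.580 to 13.4 CPM and at 11.05 to 247 CPM.

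Most leukocyte genes stood highest in the 2 sham libraries of day 14. For 34 of the 41 members the highest library was 1 of those 2, equally often replicate 1 and replicate 2. Both of them lay above all 9 other libraries for 25 of the 41 members, beside 1.84% of the 16011 genes tested. The 25 were 4 of 7 pan-leukocyte, 9 of 17 myeloid, 4 of 4 granulocyte, 1 of 4 T and NK cell, 4 of 5 B and plasma cell and 3 of 4 class II genes. No other group lay wholly above the rest for any member. Of all genes, 4.13% did so in sham at day 7, 0.693% in PNX at day 7 and 2.15% in PNX at day 14. PNX at day 14 lay wholly below the rest for Cd3e and Mzb1, beside 1.59%. For Cd3e the gap was narrow, from 0.746 CPM in PNX at day 14 to 0.850 CPM in PNX at day 7. Both values lay below the receptor percentile of their libraries, 1.12 and 1.19 CPM. No other group lay wholly below the rest for any member, beside 3.17% of all genes in sham at day 7, 0.319% in PNX at day 7 and 1.39% in sham at day 14. The other 7 members had their highest value in sham at day 7 replicate 3 (4 members), replicate 2 (1), PNX at day 7 replicate 3 (1) and PNX at day 14 replicate 3 (1).

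**Figure D1:**
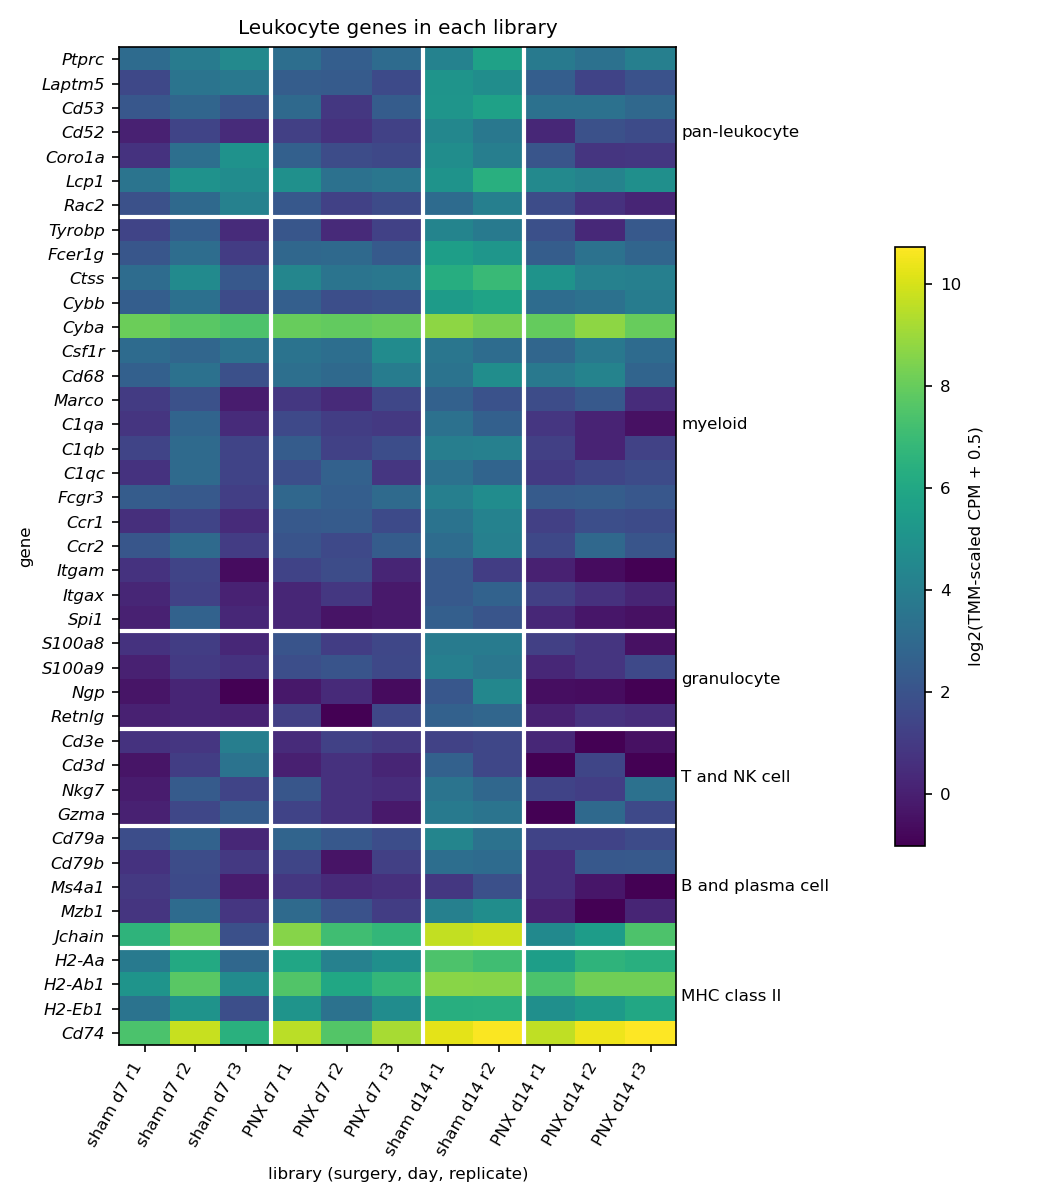
Level of each of the 41 leukocyte genes (rows, grouped by origin) in each of the 11 libraries (columns), as log2 of TMM-scaled CPM plus 0.5 by colour. The 2 sham libraries of day 14 are the brightest for most rows, 34 of the 41 members have their highest value there, and Cyba, Jchain and Cd74 are bright in most libraries.

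Pan-leukocyte genes were present in all groups. Ptprc, which encodes CD45 itself, stood at 8.15, 14.4 and 22.6 CPM in sham and 9.01, 5.26 and 7.97 CPM in PNX at day 7. At day 14 Ptprc stood at 17.8 and 51.1 CPM in sham and 13.4, 10.04 and 16.4 CPM in PNX. The highest library was a sham library of day 14, but the lower of that pair lay below sham at day 7 replicate 3, so that the groups overlapped across days. Within day 14 both sham libraries lay above the 3 PNX libraries.

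Laptm5, a lysosomal membrane protein of haematopoietic cells, stood at 2.39, 10.9 and 12.5 CPM in sham and 4.93, 4.71 and 2.57 CPM in PNX at day 7. At day 14 Laptm5 stood at 33.3 and 26.2 CPM in sham and 5.22, 2.04 and 3.37 CPM in PNX. Cd53, a tetraspanin of leukocytes, stood at 4.08, 6.66 and 3.62 CPM in sham and 7.48, 1.38 and 4.88 CPM in PNX at day 7. At day 14 Cd53 stood at 34.6 and 51.2 CPM in sham and 9.89, 9.89 and 7.42 CPM in PNX. For both genes the sham libraries of day 14 were above the other 9, and for Cd53 the gap ran from 9.89 CPM in PNX at day 14 to 34.6 CPM. Ptprc lies at chr1:138062861-138175708 and Cd53 at chr3:106759921-106790149, both on the minus strand of mm10 in GENCODE M21.

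Coro1a and Rac2, an actin regulator and a GTPase of leukocytes, had another order. Coro1a stood at 1.12, 9.23 and 30.6 CPM in sham and 5.61, 2.77 and 2.44 CPM in PNX at day 7. At day 14 Coro1a stood at 26.5 and 15.7 CPM in sham and 3.73, 1.25 and 1.35 CPM in PNX. Rac2 stood at 3.23, 7.52 and 17.1 CPM in sham and 4.25, 1.94 and 2.70 CPM in PNX at day 7. At day 14 Rac2 stood at 8.06 and 16.2 CPM in sham and 2.80, 1.10 and 0.674 CPM in PNX. In both, the highest library was sham at day 7 replicate 3, which was at the low end for Cd53. Cd52, a small surface glycoprotein of lymphocytes and myeloid cells, reached 21.2 and 12.4 CPM in sham at day 14 and at most 3.30 CPM elsewhere, and Lcp1, the actin bundler L-plastin, stood between 9.97 and 85.02 CPM.

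Except in sham at day 14 replicate 2, most of the myeloid counts came from Cyba, the small subunit of the phagocyte NADPH oxidase membrane complex, which many other cells also make. It stood at 276, 215 and 174 CPM in sham and 258, 239 and 268 CPM in PNX at day 7. At day 14 Cyba stood at 422 and 322 CPM in sham and 250.5, 420.4 and 256 CPM in PNX. Its highest library was less than 3 times its lowest, and sums below leave it out. Without it the 16 other myeloid genes summed to 51.3, 113 and 33.9 CPM in sham at day 7, 86.5, 65.9 and 85.8 CPM in PNX at day 7, 299 and 367 CPM in sham at day 14, and 87.9, 94.0 and 73.5 CPM in PNX at day 14.

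Cybb (chrX:9435252-9487771, minus strand), the large subunit that pairs with Cyba and is more restricted to phagocytes, stood at 5.20, 9.45 and 2.75 CPM in sham and 5.44, 3.05 and 3.34 CPM in PNX at day 7. At day 14 Cybb stood at 43.0 and 55.3 CPM in sham and 8.39, 9.89 and 14.6 CPM in PNX. Both sham libraries of day 14 were over 40 CPM and all others below 15 CPM, unlike Cyba, whose values in sham and PNX at day 14 overlapped. The signalling adaptors Fcer1g and Tyrobp, which pair with activating receptors of myeloid and NK cells, followed the order of Cybb. Fcer1g stood at 3.94, 8.59 and 1.59 CPM in sham and 7.14, 7.48 and 4.50 CPM in PNX at day 7. At day 14 Fcer1g stood at 47.0 and 35.2 CPM in sham and 5.04, 10.4 and 6.52 CPM in PNX. Tyrobp reached 19.2 and 13.5 CPM in sham at day 14 and at most 5.16 CPM elsewhere.

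Ctss, the lysosomal protease cathepsin S of antigen-presenting cells, stood at 8.43, 23.6 and 4.21 CPM in sham and 20.2, 11.1 and 11.9 CPM in PNX at day 7. At day 14 Ctss stood at 78.3 and 125 CPM in sham and 32.1, 17.3 and 16.4 CPM in PNX. C1qb, a chain of complement C1q made by tissue macrophages, stood at 2.11, 7.73 and 2.17 CPM in sham and 4.76, 1.94 and 2.96 CPM in PNX at day 7. At day 14 C1qb stood at 15.4 and 16.8 CPM in sham and 1.87, 0.628 and 2.02 CPM in PNX. Both were highest in sham at day 14, and sham at day 7 replicate 2 was the highest of the remaining 9 for C1qb. C1qa and C1qc, the other chains, stood at 9.74 and 5.49 CPM and at 9.74 and 6.34 CPM in sham at day 14, and sham at day 7 replicate 2, at 6.44 and 7.95 CPM, lay between these. The 3 C1q genes together summed to 4.50, 22.1 and 5.08 CPM in sham at day 7, 10.4, 9.41 and 5.65 CPM in PNX at day 7, 34.9 and 28.7 CPM in sham at day 14, and 4.66, 3.45 and 4.95 CPM in PNX at day 14.

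Receptors of monocytes had the same order at day 14. Ccr1, a chemokine receptor of monocytes and neutrophils, stood at 0.984, 2.15 and 0.870 CPM in sham and 4.42, 4.71 and 2.57 CPM in PNX at day 7. At day 14 Ccr1 stood at 10.4 and 17.8 CPM in sham and 1.87, 2.98 and 2.70 CPM in PNX. The 3 PNX libraries of day 7 lay above the 3 sham libraries of that day, and at day 14 the order was turned. Fcgr3, a low-affinity IgG receptor, showed the same 2 separations, with 4.78, 4.29 and 1.74 CPM in sham and 6.97, 5.26 and 7.71 CPM in PNX at day 7. At day 14 Fcgr3 stood at 16.1 and 25.4 CPM in sham and 4.66, 5.02 and 4.05 CPM in PNX. Ccr2, the receptor that draws monocytes from blood, reached 8.398 and 16.7 CPM in sham at day 14 and at most 7.73 CPM elsewhere.

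Csf1r, the growth factor receptor of macrophages, was an exception. It stood at 8.01, 6.87 and 10.2 CPM in sham and 10.5, 8.86 and 24.9 CPM in PNX at day 7. At day 14 Csf1r stood at 11.8 and 8.42 CPM in sham and 6.72, 12.6 and 8.09 CPM in PNX. The highest library was PNX at day 7 replicate 3, and sham and PNX overlapped at both days. Its exons share 873 bases with Hmgxb3 on the other strand, which stood at 7.06 to 24.8 CPM, and the strand setting of the counting is not given in the sources used here.

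Cd68, a lysosomal protein of macrophages and many other cells, stood between 3.19 and 26.4 CPM, and its PNX and sham libraries overlapped at both days. Marco, a scavenger receptor of alveolar macrophages, stood between 0.435 and 5.71 CPM, and its PNX and sham libraries overlapped as well. Sham at day 14 lay narrowly above sham at day 7 for both genes. The nearest values were 10.41 and 9.879 CPM for Cd68 and 3.415 and 3.222 CPM for Marco. The integrin genes Itgam and Itgax and the gene of PU.1, Spi1, were at low counts in most libraries outside sham at day 14. Spi1 stood at 0.562, 6.01 and 0.725 CPM in sham and 4, 1 and 3 counts, or 0.277 to 0.680 CPM, in PNX at day 7. At day 14 Spi1 stood at 5.38 and 3.78 CPM in sham and 4, 2 and 1 counts in PNX. Itgam stood at 1.12, 2.15 and 0.145 CPM in sham and 2.04, 2.77 and 0.642 CPM in PNX at day 7. At day 14 Itgam stood at 4.37 and 1.71 CPM in sham and 3, 1 and 0 counts in PNX. Of its exon bases 3450 are shared with Gm49368 on the same strand, which had no row of its own. Itgax reached 4.37 and 5.98 CPM in sham at day 14, with at most 1.93 CPM elsewhere.

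The 4 granulocyte members were low outside sham at day 14. They summed to 2.53, 4.51 and 2.46 CPM in sham at day 7, 8.84, 6.09 and 7.195 CPM in PNX at day 7, 40.3 and 53.7 CPM in sham at day 14, and 3.36, 3.77 and 3.60 CPM in PNX at day 14. S100a8 and S100a9 encode the 2 subunits of calprotectin, the main cytosolic protein of neutrophils. S100a8 stood at 1.12, 1.72 and 0.725 CPM in sham and 3.57, 1.66 and 2.31 CPM in PNX at day 7. At day 14 S100a8 stood at 14.4 and 14.0 CPM in sham and 1.87, 1.25 and 0.225 CPM in PNX. S100a9 stood at 0.562, 1.503 and 1.16 CPM in sham and 3.06, 3.60 and 2.44 CPM in PNX at day 7. At day 14 S100a9 stood at 16.1 and 11.9 CPM in sham and 0.746, 1.25 and 2.47 CPM in PNX. For S100a9 the PNX libraries of day 7 were all above the sham libraries of day 7 and all below those of day 14. A second granulocyte list differed from the members in that PNX at day 7 overlapped sham at day 14. It summed to 84.99, 34.3 and 94.6 CPM in PNX at day 7, 53.4 and 90.8 CPM in sham at day 14, 32.1, 57.3 and 10.9 CPM in sham at day 7 and 20.7, 16.9 and 23.4 CPM in PNX at day 14. Lcn2, lipocalin 2, which epithelium also makes, had the highest mean CPM of that list.

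Ngp, a granule protein of immature neutrophils, stood at 2, 3 and 0 counts in sham and 2, 3 and 1 counts in PNX at day 7. At day 14 Ngp stood at 4.03 and 20.9 CPM in sham and 1, 1 and 0 counts in PNX. It exceeded the cutoff of the filter on low counts only in the 2 sham libraries of day 14, and so entered the tests through the group in which it was high. Counts of members that set sham at day 14 apart include Ngp with this limit. Retnlg, a resistin-like protein of neutrophils, reached 5.71 and 6.83 CPM in sham at day 14 and at most 2.31 CPM elsewhere.

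Among T and NK cell genes, Cd3e and Cd3d, the CD3 chains of the T cell receptor complex, were highest in 1 sham library of day 7. Cd3e stood at 1.12, 1.29 and 15.5 CPM in sham and 0.850, 1.94 and 1.41 CPM in PNX at day 7. At day 14 Cd3e stood at 2.02 and 2.32 CPM in sham and 4, 0 and 1 counts in PNX. Cd3d stood at 0.281, 1.72 and 10.58 CPM in sham and 3, 4 and 5 counts, or 0.510 to 1.11 CPM, in PNX at day 7. At day 14 Cd3d stood at 5.71 and 2.32 CPM in sham and 0, 2.197 and 0 CPM in PNX. Sham at day 7 replicate 3 stood apart from the other 10 libraries for both, and within its group the other libraries were at or below 1.72 CPM.

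Genes listed for T cells beside the members were divided between this library and sham at day 14. Lck, the kinase that starts signalling at the receptor, stood at 0.703, 4.51 and 72.2 CPM in sham and 2.38, 1.38 and 3.21 CPM in PNX at day 7. At day 14 Lck stood at 7.05 and 8.78 CPM in sham and 1.12, 1.41 and 0.225 CPM in PNX. Cd3g, Cd8a and Cd8b1, chosen after their values were seen, reached 18.4, 14.1 and 13.9 CPM in sham at day 7 replicate 3 and at most 6.05, 1.34 and 5.71 CPM elsewhere. Cd2 and Cd28, a T and NK cell adhesion receptor and a costimulatory receptor, reached 5.08 and 11.02 CPM there, with 22.8 and 15.4 CPM and 12.8 and 8.54 CPM in sham at day 14. Il7r, the interleukin 7 receptor chain, also chosen after its values were seen, was like Cd2 higher in both sham libraries of day 14 than in the other 9.

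Gzma and Nkg7, of the cytotoxic granules of NK and T cells, had their highest values in sham at day 14. Gzma stood at 0.562, 2.36 and 4.79 CPM in sham and 2.04, 1.11 and 0.386 CPM in PNX at day 7. At day 14 Gzma stood at 13.8 and 10.98 CPM in sham and 0, 7.53 and 2.47 CPM in PNX. Nkg7 stood at 0.4217, 4.72 and 2.17 CPM in sham and 3.91, 1.11 and 0.899 CPM in PNX at day 7. At day 14 Nkg7 stood at 11.1 and 6.95 CPM in sham and 2.05, 1.73 and 9.89 CPM in PNX. For Gzma both sham libraries of day 14 lay above the rest, while for Nkg7 PNX at day 14 replicate 3 lay between them.

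Except in sham at day 7 replicate 3, most B and plasma cell counts came from Jchain (chr5:88519809-88527891, minus strand), which joins the chains of IgA and IgM and is made by plasma cells. It stood at 97.4, 272 and 3.19 CPM in sham and 392, 139 and 107 CPM in PNX at day 7. At day 14 Jchain stood at 804 and 924 CPM in sham and 23.5, 43.8 and 174 CPM in PNX. Both sham libraries of day 14 lay above the rest, and the 2 lowest libraries were sham at day 7 replicate 3 and PNX at day 14 replicate 1. Without Jchain the 4 other genes summed to 6.75, 19.5 and 3.92 CPM in sham at day 7, 17.9, 8.58 and 7.45 CPM in PNX at day 7, 46.7 and 48.5 CPM in sham at day 14, and 4.48, 6.59 and 7.64 CPM in PNX at day 14.

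Mzb1, a chaperone of antibody assembly in plasma and marginal zone B cells, stood at 1.26, 8.16 and 1.30 CPM in sham and 7.82, 3.32 and 1.67 CPM in PNX at day 7. At day 14 Mzb1 stood at 16.8 and 26.8 CPM in sham and 3, 0 and 3 counts in PNX. The 3 PNX libraries of day 14 were the lowest 3 of all 11, and both sham libraries of day 14 the highest. Of its exon bases 695 are shared with another annotated gene, SPATA24, on the same strand, which had no row of its own, and how such reads were counted is not given in the sources used here. Cd79a and Cd79b, the signalling chains of the B cell receptor, reached 19.5 and 10.4 CPM and 9.07 and 8.17 CPM in sham at day 14, with at most 6.46 and 4.27 CPM elsewhere. Ms4a1, which encodes CD20 of mature B cells and is lost in plasma cells, stood at 1.41, 2.58 and 0.435 CPM in sham and 1.36, 0.831 and 1.03 CPM in PNX at day 7. At day 14 Ms4a1 stood at 1.34 and 3.17 CPM in sham and 5, 2 and 0 counts in PNX, and its groups overlapped at day 7. The highest PNX library of day 14 was at 0.933 CPM. The value of 1.34 CPM lay below the receptor percentile of its library, 3.02 CPM, so the order of Ms4a1 at day 14 rests on few counts.

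Class II genes were the origin in which PNX and sham at day 14 were closest. Cd74, the invariant chain that guides class II molecules to the endosome, stood at 172, 868 and 85.8 CPM in sham and 733, 194 and 583 CPM in PNX at day 7. At day 14 Cd74 stood at 1204 and 1595 CPM in sham and 779, 1390 and 1698 CPM in PNX. The highest library of all was PNX at day 14 replicate 3, and the groups of day 14 overlapped.

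H2-Aa, the alpha chain of the I-A molecule, stood at 13.5, 69.4 and 6.96 CPM in sham and 60.5, 17.4 and 28.1 CPM in PNX at day 7. At day 14 H2-Aa stood at 177 and 139 CPM in sham and 47.6, 97.1 and 85.2 CPM in PNX. Its beta chain gene H2-Ab1 stood at 33.6, 211 and 24.8 CPM in sham and 186, 62.6 and 108 CPM in PNX at day 7. At day 14 H2-Ab1 stood at 399 and 384 CPM in sham and 168, 287 and 287 CPM in PNX. H2-Eb1, of the I-E pair, stood at 10.5, 32.0 and 3.04 CPM in sham and 32.6, 10.2 and 25.7 CPM in PNX at day 7. At day 14 H2-Eb1 stood at 82.6 and 85.3 CPM in sham and 28.5, 41.7 and 64.1 CPM in PNX. In all 3 the sham libraries of day 14 were above the others, followed in H2-Aa by the higher PNX libraries of that day. In sham at day 7 all 4 class II genes were highest in replicate 2 and lowest in replicate 3.

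Sftpc, the surfactant gene of alveolar type II cells, which also make class II molecules, stood at 716, 11270 and 23.5 CPM in sham and 1529, 1353 and 343 CPM in PNX at day 7. At day 14 Sftpc stood at 9933 and 1919 CPM in sham and 13660, 15520 and 6819 CPM in PNX. It was at its lowest in sham at day 7 replicate 3 and at 6819 CPM or more in sham at day 7 replicate 2, sham at day 14 replicate 1 and all 3 PNX libraries of day 14. The 10 epithelial genes summed to 212 to 12230 CPM in sham at day 7, 921 to 2422 CPM in PNX at day 7, 12510 and 2804 CPM in sham at day 14, and 7339 to 16620 CPM in PNX at day 14. Its part in the class II levels was not tested.

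**Figure D2:**
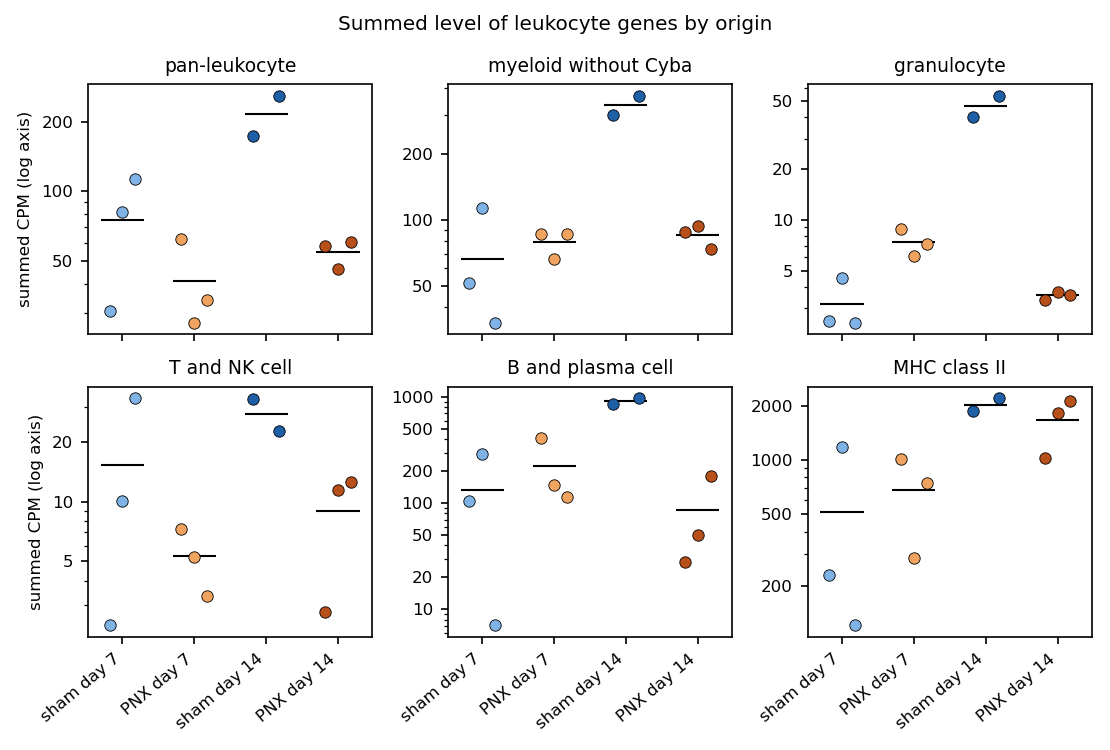
Summed TMM-scaled CPM of the members of each origin (log axes), with 1 point per library and a line at the group mean. The myeloid panel leaves out Cyba, while the B and plasma cell panel keeps Jchain and the class II panel keeps Cd74. The sham libraries of day 14 stand apart above the rest for pan-leukocyte, myeloid, granulocyte and B and plasma cell genes, while in the T and NK panel 1 sham library of day 7 stands as high and in the class II panel PNX at day 14 overlaps them.

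Levels per kilobase of exon allow the members to be ranked within a group. Cd74 and Cyba were first and second in all 4 groups, at 224 ± 256 and 213 ± 49.6 CPM per kb in sham at day 7 (SD, n = 3) and at 834 ± 165 and 358 ± 68.0 CPM per kb in sham at day 14 (SD, n = 2). Jchain came next and then H2-Ab1, except in PNX at day 14, where H2-Ab1 came before Jchain at 96.3 ± 26.6 and 32.0 ± 32.5 CPM per kb (SD, n = 3). At 32.0 and 343 CPM per kb, Jchain stood further apart between PNX and sham at day 14 than the other genes of these ranks.

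PNX was compared with sham at day 7 to see whether resection moved leukocyte transcripts within the gate in the first week. No member passed an adjusted p of 0.05 in edgeR's quasi-likelihood test, beside 0.0375% of the genes tested (6 of 16011, all higher). Members were split, 20 higher and 21 lower after PNX, beside 51.7% and 48.3% of all genes, with a median log2 fold change of -0.01 beside 0.03. The split moved with single libraries in both directions. Without sham at day 7 replicate 2 it was 31 higher and 10 lower (median 0.68), and without sham at day 7 replicate 3 or without PNX at day 7 replicate 1 it was 15 and 26 (medians -0.20 and -0.28). In limma voom it was 32 and 9 (median 0.52). At an unadjusted p under 0.05 there were 2 members higher and 4 lower, beside 4.66% and 8.07% of all genes, and groups did not overlap for 3 members higher and 0 lower, beside 9.95% and 9.57%.

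All 4 granulocyte genes and all 4 class II genes were on the higher side at day 7, and 6 of 7 pan-leukocyte and all 4 T and NK cell genes on the lower side. None passed, and the lowest 4 p-values were those of Ccr1 (log2 fold change 1.56 ± 0.59 SE, adjusted p = 0.26 in edgeR), Rac2 (log2 fold change -1.63 ± 0.64 SE, adjusted p = 0.277 in edgeR), S100a9 (log2 fold change 1.49 ± 0.65 SE, adjusted p = 0.34 in edgeR) and Coro1a (log2 fold change -1.91 ± 0.83 SE, adjusted p = 0.356 in edgeR). Coro1a and Rac2 were uneven over the 3 sham libraries, with replicate 3 far above. Without sham at day 7 replicate 1, the lowest of the 3, Coro1a passed as the only member (log2 fold change -2.46, edgeR adjusted p = 0.0309). All genes called with a library left out are given as a range in a later section, so the share for this fit does not stand beside it. Without the 3 libraries of highest background 32 members were higher and 9 lower, with a median of 0.85 beside 0.005 for all genes.

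At day 14 the same question was asked a week later, and 0 members were higher and all 41 lower after PNX, beside 45.1% and 54.8% of all genes. The median log2 fold change was -2.31, beside -0.07 for all genes. No member passed the threshold in edgeR, and of all genes 0.00625% did (1 of 16011, higher). The unadjusted p was under 0.05 for 0 members higher and 28 lower, beside 3.19% and 3.63% of all genes. Both sham libraries lay above all 3 PNX libraries for 35 of the 41, beside 8.28%, and below them for 0, beside 9.57%.

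The 35 were 7 of 7 pan-leukocyte, 13 of 17 myeloid, 4 of 4 granulocyte, 3 of 4 T and NK cell, 5 of 5 B and plasma cell and 3 of 4 class II genes. Median log2 fold changes were -2.88 for pan-leukocyte, -2.18 for myeloid, -3.43 for granulocyte, -2.09 for T and NK cell, -2.70 for B and plasma cell and -0.79 for class II genes. For none of the 4 class II genes was the unadjusted edgeR p under 0.05. Without sham replicate 2, 39 members were lower and 2 higher, with a median of -1.89. Spi1, Ngp and Ms4a1 exceeded the cutoff of the filter on low counts in at most 1 library outside sham at day 14. All 3 are among the 35, and Spi1 and Ngp are among the 28 with an unadjusted p under 0.05. Without these 3 genes all 38 were lower, with a median of -2.23.

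The 4 members of smallest p at day 14 were Mzb1 (log2 fold change -5.75 ± 1.01 SE, adjusted p = 0.0666 in edgeR), Ngp (log2 fold change -6.46 ± 1.22 SE, adjusted p = 0.0687 in edgeR), Laptm5 (log2 fold change -3.06 ± 0.60 SE, adjusted p = 0.0734 in edgeR) and C1qb (log2 fold change -3.43 ± 0.70 SE, adjusted p = 0.0905 in edgeR). The estimate for Ngp rests on 2 counts in PNX, and since Ngp passed the filter only through sham at day 14, its p supports nothing further. Mzb1 fell short of the threshold with 270 counts in sham and 6 in PNX, a scaled ratio of 65.2 with an exact 95% interval of 29.6 to 179 that covers counting error only. DESeq2 called 16 members as lower, Mzb1, Laptm5 and C1qb among them, beside 0.275% of its genes, and edgeR on the groups of day 14 alone called 15, beside 0.227%. Both counts include Ngp, for which the limit above holds. In limma voom none passed. Without sham at day 7 replicate 2, which is in neither group compared, edgeR called 7, Ngp among them with the same limit. All genes called with a library left out are given as a range in a later section, so the share for this fit does not stand beside it.

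**Figure D3:**
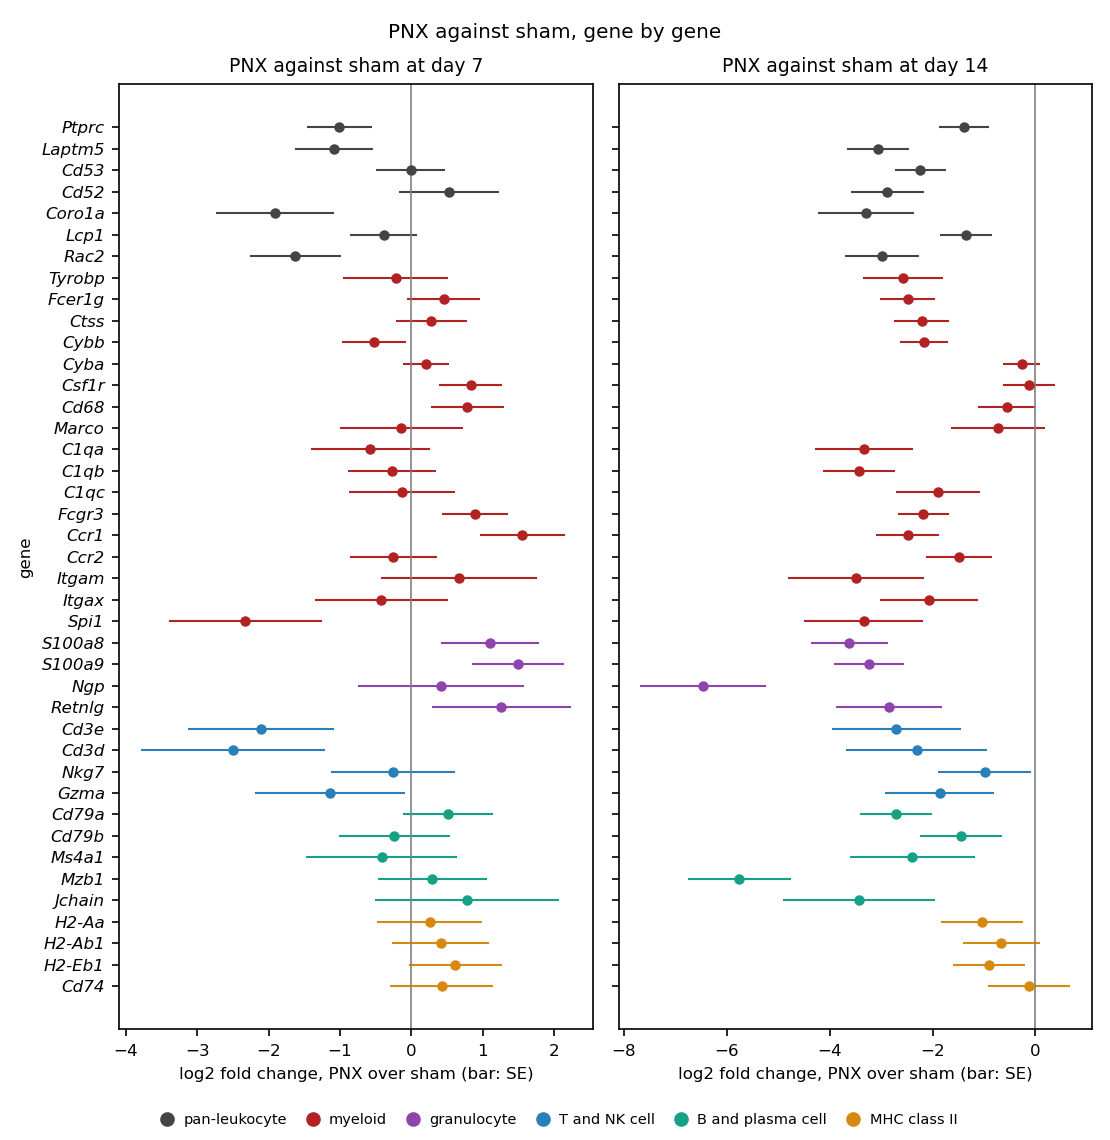
Log2 fold change of PNX over sham for each member at day 7 (left) and day 14 (right), with bars of 1 SE and colours by origin; the horizontal axes differ in range. At day 7 the points lie on both sides of 0, at day 14 all 41 lie below 0, with Mzb1 and Ngp farthest and Cd74, Csf1r and Cyba nearest to it.

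Most of the other leukocyte lists leaned to the lower side at day 14, but not all. Of 12 other pan-leukocyte genes 11 were lower, of 8 alveolar macrophage genes 7 and of 14 monocyte and interstitial macrophage genes 12, beside 54.8% of all genes. Of 9 dendritic cell genes tested 8 were lower, and of 7 other class II pathway genes 5. All of the 8 other granulocyte, 11 other T cell, 5 other NK cell, 7 other B cell and 3 other plasma cell genes tested were lower. Mast cell and basophil genes were split, 3 higher and 3 lower, with a median of 0.58. Outside leukocytes all 5 platelet genes were lower too, with a median of -1.36. Of 6 erythroid, 7 endothelial and 10 epithelial genes 2, 3 and 6 were lower. None of these genes passed the threshold in edgeR. The summed CPM of the other pan-leukocyte genes was 231 ± 75.5 in sham (SD, n = 2) and 312 ± 87.1 in PNX (SD, n = 3). Arhgdib had the highest mean CPM of that list and was its 1 gene on the higher side. Arhgdib stood at 85.7 and 152 CPM in sham at day 14 and 172, 339 and 327 CPM in PNX at day 14. Chil3, a chitinase-like protein of alveolar macrophages, stood at 121 and 187 CPM in sham at day 14 and 96.3, 111 and 50.8 CPM in PNX at day 14, with no overlap. Lyz2, the lysozyme of myeloid cells that type II epithelium also makes, stood at 649 and 476 CPM in sham at day 14 and 683, 450.4 and 255 CPM in PNX at day 14 and overlapped. Of 12 mesenchymal genes 9 were higher after PNX at day 14, with a median of 0.83, and the part of this shift in the leukocyte values was not tested.

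The difference of the PNX effect between the days was tested directly as an interaction. No member passed in edgeR, and 0% of all genes did. Of the members 1, Cd3d, was on the higher side and 40 on the lower, beside 49.5% and 50.5% of all genes, with a median of -1.66 beside -0.01. The unadjusted p was under 0.05 for 0 members on the higher side and 18 on the lower, beside 4.16% and 4.6%. The 4 members of smallest p were S100a9 (log2 fold change -4.72 ± 0.94 SE, adjusted p = 0.168 in edgeR), Ccr1 (log2 fold change -4.04 ± 0.85 SE, adjusted p = 0.203 in edgeR), Mzb1 (log2 fold change -6.05 ± 1.27 SE, adjusted p = 0.203 in edgeR) and S100a8 (log2 fold change -4.73 ± 1.02 SE, adjusted p = 0.203 in edgeR). DESeq2 called 7 members lower here, these 4 among them, beside 0.439% of its genes.

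Between days after sham, which shares its sham libraries with the comparisons above, 2 members rose, and they were 2 of the 3 genes called of all 16011 (0.0187%). Cybb rose, with 5.80 ± 3.39 CPM at day 7 (SD, n = 3) and 49.1 ± 8.67 CPM at day 14 (SD, n = 2; edgeR log2 fold change 3.10 ± 0.48 SE, adjusted p = 0.0359). Cd53 rose as well, with 4.79 ± 1.64 CPM at day 7 and 42.9 ± 11.8 CPM at day 14 (SD; edgeR log2 fold change 3.18 ± 0.51 SE, adjusted p = 0.0431). Next were Fcer1g (log2 fold change 3.15 ± 0.55 SE, adjusted p = 0.0626 in edgeR) and Ctss (log2 fold change 3.09 ± 0.55 SE, adjusted p = 0.0729 in edgeR). Cybb and Cd53 did not pass with limma voom (adjusted p = 0.142 and 0.278), with total counts in place of TMM factors (edgeR, 0.0763 and 0.0754), with only the groups compared (edgeR, 0.0835 and 0.0532), or without sham at day 7 replicate 3 (edgeR, 0.154 and 0.169) or any 1 of the PNX libraries of day 14 (edgeR, 0.0647 to 0.113).

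Of the 41 members 39 were higher and 2 lower at day 14 after sham, beside 52.5% and 47.5% of all genes, with a median log2 fold change of 2.13 beside 0.05. The other 2 were Cd3e and Cd3d, and without sham at day 7 replicate 3 all 41 were higher. The unadjusted edgeR p was under 0.05 for 26 higher and 0 lower, beside 6.32% and 7.94%, and the groups did not overlap for 30 higher and 0 lower, beside 12.5% and 11.8%. The 30 were 4 of 7 pan-leukocyte, 12 of 17 myeloid, 4 of 4 granulocyte, 2 of 4 T and NK cell, 4 of 5 B and plasma cell and 4 of 4 class II genes. DESeq2 called 13, beside 2.38% of its genes.

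Between days after PNX no member passed in edgeR, and 0% of all genes did. Members were split, 21 higher and 20 lower, beside 45.9% and 54.1% of all genes, with a median of 0.08 beside -0.06. At an unadjusted p under 0.05, 1 was higher and 2 lower, beside 3.72% and 3.13%, and groups stood apart for 3 and 6, beside 9.02% and 9.08%. With total counts in place of TMM factors, which moved the median of all genes from -0.06 to -0.35, 16 were higher and 25 lower. The 4 members of smallest p were Mzb1 (log2 fold change -3.40 ± 0.96 SE, adjusted p = 0.513 in edgeR), Cybb (log2 fold change 1.46 ± 0.45 SE, adjusted p = 0.56 in edgeR), Itgam (log2 fold change -2.76 ± 1.24 SE, adjusted p = 0.724 in edgeR) and Cd53 (log2 fold change 0.95 ± 0.47 SE, adjusted p = 0.748 in edgeR). All 4 class II genes were higher at day 14, with a median of 1.08, while all 4 granulocyte and 4 of 5 B and plasma cell genes were lower, with medians of -1.08 and -1.31.

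The mix of origins differed between libraries as well as the amount. Class II genes per myeloid gene without Cyba, a ratio of summed CPM, stood at 4.47, 10.4 and 3.56 in sham at day 7, 11.7, 4.32 and 8.68 in PNX at day 7, 6.222 and 6.003 in sham at day 14, and 11.7, 19.3 and 29.0 in PNX at day 14. The PNX libraries of day 14 held the 2 highest ratios and, with PNX at day 7 replicate 1, the highest 4. The 2 sham libraries of day 14 were close to each other and within the range of day 7.

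The CD3 genes per myeloid gene stood at 0.769 in sham at day 7 replicate 3 and at 0.00306 to 0.0462 in the other 10 libraries, so that this library differed in its mix while its summed myeloid level, 33.9 CPM, was the lowest of all. In the same library Jchain per Cd79a and Cd79b was 1.47, beside 6.98 to 49.9 in the others. Among PNX libraries of day 14 that ratio was 7.88, 6.98 and 25.0, and in sham at day 14 it was 28.2 and 49.9. No test was run on these ratios.

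**Figure D4:**
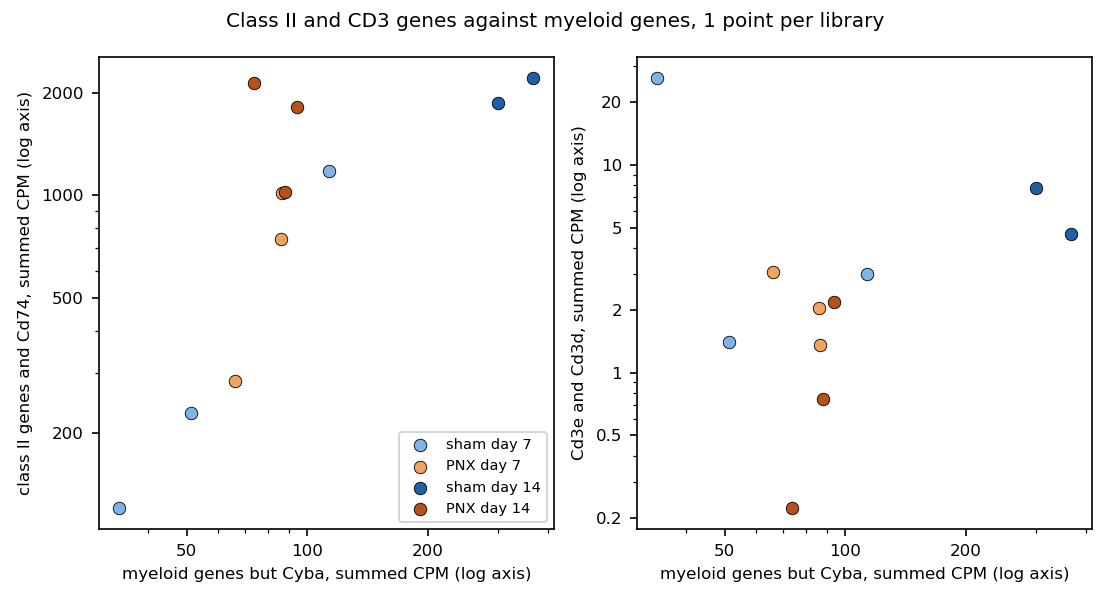
Summed TMM-scaled CPM of the 4 class II genes (left) and of Cd3e and Cd3d (right) against that of the myeloid genes without Cyba, 1 point per library on log axes. On the left PNX at day 14 replicates 2 and 3, at 1816 and 2134 CPM of class II genes, sit highest for their myeloid sums, while replicate 1 lies beside PNX at day 7 replicate 1, and on the right sham at day 7 replicate 3 sits alone at 26.1 CPM of CD3 genes and 33.9 CPM of myeloid genes.

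Group by group, the leukocyte transcripts within the gate were as follows. Sham at day 14 held myeloid (333 ± 47.9 CPM without Cyba, SD, n = 2), granulocyte (47.0 ± 9.45), T and NK cell (27.6 ± 7.08) and B and plasma cell genes (47.6 ± 1.31 without Jchain) in both libraries. PNX at day 14 held 85.1 ± 10.5, 3.57 ± 0.205, 8.95 ± 5.36 and 6.24 ± 1.61 CPM of the same sets (SD, n = 3). PNX at day 7 held 79.4 ± 11.7, 7.38 ± 1.38, 5.30 ± 1.98 and 11.3 ± 5.71 CPM (SD, n = 3). Sham at day 7 was uneven: replicate 2 held the most myeloid, class II and B and plasma cell transcripts of the 3, replicate 3 the CD3 genes, and replicate 1 the fewest pan-leukocyte and T and NK cell transcripts.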

How the data were processed

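RNA of sorted mouse lung mesenchyme was sequenced in 11 libraries after a low-input preparation, per the labels' protocols. The authors deposited whole read counts per gene symbol. The build mm10 and bcl2fastq 2.20.0.422 are named in the submitters' processing notes; aligner, counting tool, annotation and strand are not given in the sources used here. All 11 columns were used.

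The members and lists were chosen with earlier results of these data known. Each member is described in every library. Fold changes are given for members past 0.05 and for the 4 of smallest p per comparison, and of other lists up to 3 genes of highest mean CPM are named. SPATA24, Gm49368 and Hmgxb3 are named as exon neighbours.

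edgeR 4.0.16 in R 4.3.3 was run with TMM factors, filterByExpr (1.83 CPM in at least 2 libraries, leaving 16011 of 24411 genes and all 41 members), 4 group means over all 11 libraries (7 residual degrees of freedom) and a robust quasi-likelihood F test. The Benjamini-Hochberg adjustment ran over the 16011 genes. The SE is the log2 fold change over the square root of F. Exon lengths and overlaps came from GENCODE M21 and promoters from RefSeq. Alternatives were DESeq2 1.42.0, RLE size factors, limma 3.58.1 voom (sample weights), total counts, no filter, a replicate block, only the groups compared, the 3 libraries of highest receptor background left out, and each library left out. Sums without Cyba, Jchain or Cd74 were added after seeing the data. The main edgeR fit, DESeq2 and limma voom were also run on simulated counts with the same dispersion for all genes. Those counts held no differences in cell mix between libraries, and the outcome is not given here. Figures were drawn with matplotlib 3.10.9.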

Additional observations from a re-analysis of the deposited data

Results flagged for a closer look

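Ccr1, S100a9 and Fcgr3 are given here because all PNX libraries stood above all sham libraries at day 7 and below them at day 14. Of all genes 9.95% did the first and 8.28% the second. The share that did both was not counted, so whether the pattern is more frequent among members is not known. The 3 genes were picked by this pattern, so the values below are no separate support for it. The difference of the PNX effect between day 14 and day 7 was -4.04 on the log2 scale for Ccr1, -4.72 for S100a9 and -3.07 for Fcgr3. In edgeR's interaction test the adjusted p-values were 0.203, 0.168 and 0.204, none past the threshold. All 3 contrasts use the 2 sham libraries of day 14, in which most members stood highest.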

How the results depend on the processing

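Counts of members called moved with the settings as follows. With DESeq2, PNX against sham gave 0 members at day 7 and 16 at day 14, the interaction 7, and the days after sham 13. DESeq2 gave an adjusted p to 32 members at day 7, 41 at day 14, 40 for the interaction and 32 for the days after sham. Without the filter on low counts the members called were 7 at day 14, 1 for the interaction and 10 for the days after sham. With only the groups compared there were 15 at day 14 and 0 for the days after sham. Without the 3 libraries of highest background there were 1 at day 7, 3 at day 14 and 7 for the days after sham. For the days after sham, limma voom, total counts and the replicate block gave 0 each, beside 2 in the model without a block. Between days after PNX no setting called a member. Leaving out 1 library at a time gave 0 to 1 members at day 7, 0 to 7 at day 14, 0 to 2 for the interaction and 0 to 10 for the days after sham.

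All genes called at day 7 numbered 6, and 434 with DESeq2, 826 with voom, 12 with total counts, 178 without the filter, 22 without the 3 libraries of highest background and 3 to 425 with 1 library left out. At day 14 they numbered 1, and 108 with DESeq2, 0 with voom, 2 with RLE size factors, 3 with total counts, 27 without the filter, 0 with the replicate block, 52 with only the groups compared, 23 without the 3 libraries and 0 to 74 with 1 left out. For the interaction they numbered 0, and 93 with DESeq2, 1 with total counts, 8 without the filter, 1 with the replicate block, 3 without the 3 libraries and 0 to 370 with 1 left out. After sham they numbered 3, and 639 with DESeq2, 0 with voom, total counts or only the groups compared, 102 without the filter, 1 with the replicate block, 16 without the 3 libraries and 1 to 958 with 1 left out, the highest without sham at day 14 replicate 2. After PNX they numbered 0, and 63 with DESeq2, 111 with voom, 8 without the filter, 1 with the replicate block, 83 with only the groups compared and 0 to 2 with 1 left out. The causes were not tested.

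Deviations of same-numbered libraries from their group means correlated between -0.59 and 0.54, and those of differently numbered libraries between -0.63 and 0.59. Deviations within a group balance each other, so these values cannot decide whether the numbers pair the libraries. The replicate block is given here only. The direction at day 14 held for 39 to 41 members in the settings run. Low members are least certain in sham at day 14 replicate 1 and PNX at day 7 replicate 2, the libraries of fewest counts. Their receptor background was also the highest, with a mean of 0.954 and 0.681 CPM per receptor gene beside 0.0698 to 0.392 CPM elsewhere, and its source was not tested.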

Other observations

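Mast cell genes stood apart in 1 library. Cma1, the mast cell chymase, reached 40.01 CPM in PNX at day 14 replicate 3 and at most 5.04 CPM in the other libraries. Cpa3, the mast cell carboxypeptidase, reached 15.1 CPM there and at most 5.44 CPM elsewhere, and Tpsb2, a mast cell tryptase, 10.56 and at most 2.83 CPM. The same library held the highest Cd74.

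Trem2, a receptor of lipid-handling macrophages chosen after its values were seen, stood at 1.83, 1.29 and 1.74 CPM in sham and 15.1, 5.26 and 30.2 CPM in PNX at day 7. At day 14 Trem2 stood at 5.38 and 2.93 CPM in sham and 5.60, 7.85 and 10.56 CPM in PNX. In PNX against sham at day 7 it was the leukocyte gene nearest to the threshold among the lists (log2 fold change 3.36 ± 0.59 SE, adjusted p = 0.0529 in edgeR), and the 3 PNX libraries lay above the 3 sham libraries. Plac8, of monocytes and also of epithelium, followed (log2 fold change 1.85 ± 0.39 SE, adjusted p = 0.0752 in edgeR). Haemoglobin transcripts varied widely between libraries. Hba-a1, an alpha globin gene of red blood cells, stood at 4675, 16880 and 14630 CPM in sham and 23090, 16130 and 3594 CPM in PNX at day 7. At day 14 Hba-a1 stood at 22310 and 2904 CPM in sham and 252, 76930 and 32360 CPM in PNX.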
